A study of Mus musculus with 7 samples.

Results

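The transcripts of 10 dual-specificity MAP kinase phosphatases (Dusp1, Dusp2, Dusp4, Dusp5, Dusp6, Dusp7, Dusp8, Dusp10, Dusp14 and Dusp16) were examined in white adipocytes of mice with and without the free fatty acid receptor FFA2. They were chosen by gene symbol out of 57010 gene identifiers in the count table, all 10 symbols were found, and all 10 were among the 17039 genes that passed the filter on low counts. RNA-Seq was done on mature adipocytes, freed by collagenase from the perigonadal fat of chow-fed male mice aged 20 weeks. The 3 control libraries came from FFA2 fl/fl mice, whose Ffar2 gene is flanked by loxP sites and for which the labels name no Cre. The 4 Adipoq-F2-KO libraries came from co-housed littermates with the same floxed alleles and a Cre transgene under the adiponectin promoter, which acts in adipocytes, so other cells of the fat pad keep the receptor. Libraries are named by genotype and number, and the labels do not say that the numbers pair mice.

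MAP kinases carry signals from growth factors, stress and inflammation to the nucleus. ERK answers mainly to growth factors and to many G protein-coupled receptors, while p38 and JNK answer mainly to cytokines and stress. The dual-specificity phosphatases switch these kinases off by removing phosphate from both the threonine and the tyrosine of the activation loop, and several of their genes are induced by the very kinase that they inactivate, which makes them feedback regulators and common markers of recent pathway activity. Dusp4, Dusp5, Dusp6 and Dusp7, which act mainly on ERK, were grouped as the ERK arm. Dusp1, Dusp2, Dusp8, Dusp10 and Dusp16 were grouped as the stress arm, since they are stress-induced or act mainly on p38 and JNK, although the products of Dusp1 and Dusp2 also act on ERK. Dusp14 encodes a small atypical member without the kinase-binding domain of the others.

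RefSeq promoter sequences (GRCm38.p6) were found for 9 of the 10 genes, from 250 bases before to 50 bases after the start. The 150 bases before the start are printed 5′ to 3′ on the gene's own strand for Dusp10, the member that passed the test, for Dusp2, the other member whose genotypes did not overlap, and for Dusp1, Dusp8 and Dusp5, which hold the rarer of the motifs searched. The 5 genes were picked after their values and motif matches were known, and capitals mark matches to a cAMP response element (CRE), a serum response element or a CCAAT box on either strand.
Dusp10, chr1:184034231-184034380, plus strand: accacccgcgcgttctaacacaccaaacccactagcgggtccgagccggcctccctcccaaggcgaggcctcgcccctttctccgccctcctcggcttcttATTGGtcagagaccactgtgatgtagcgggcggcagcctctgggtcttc
Dusp2, chr2:127336009-127336158, plus strand: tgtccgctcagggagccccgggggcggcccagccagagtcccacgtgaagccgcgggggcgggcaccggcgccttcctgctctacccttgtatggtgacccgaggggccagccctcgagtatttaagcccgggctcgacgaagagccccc
Dusp1, chr17:26508473-26508622, minus strand: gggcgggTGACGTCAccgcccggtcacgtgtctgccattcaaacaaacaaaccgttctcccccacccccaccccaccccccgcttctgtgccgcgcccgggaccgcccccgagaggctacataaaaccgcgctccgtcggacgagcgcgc
Dusp8, chr7:142095285-142095434, minus strand: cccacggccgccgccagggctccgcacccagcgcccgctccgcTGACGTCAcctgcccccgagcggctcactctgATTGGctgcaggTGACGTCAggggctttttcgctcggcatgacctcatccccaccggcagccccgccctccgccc
Dusp5, chr19:53528995-53529144, plus strand: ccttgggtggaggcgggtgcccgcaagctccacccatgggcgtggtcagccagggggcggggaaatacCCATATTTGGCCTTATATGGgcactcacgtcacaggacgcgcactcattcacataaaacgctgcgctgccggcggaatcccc

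Motif matches were found in members of both arms. The full CRE, TGACGTCA, was present in 1.79% of the 32851 promoters of the table, starting 143 bases before the start of Dusp1 and at 107 and 63 bases before that of Dusp8, which are both in the stress arm. Serum response elements, present in 1.63% of promoters, were found only at Dusp5 among the 9 members, side by side at 82 and 72 bases before the start. CCAAT, present in 37.4% of promoters, was matched 4 times in the Dusp10 window and 1 time each at Dusp6, Dusp7, Dusp8 and Dusp16. GGGCGG, the GC box, is common (35.7%) and was found at Dusp1, Dusp2, Dusp5, Dusp7, Dusp8, Dusp10, Dusp14 and Dusp16. TGACG, the core of the CRE and therefore also counted within it, is found in 20.8% of promoters and was present at Dusp1, Dusp2, Dusp5, Dusp8 and Dusp16. No member held the AP-1 motif TGAGTCA (5.2% of promoters), the NF-kB motif (4.51%), the Ets motif CCGGAAG (8.86%), TATAAA (13.6%) or the glucocorticoid response element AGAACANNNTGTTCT (0.00913%). A match describes the letters of the window and not a site in use.

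The libraries held between 30478997 and 39992605 counts. Ffar2 was at 32.0 to 37.5 CPM (counts relative to library size, after scaling by the TMM method) in the FFA2 fl/fl libraries and at 1.15 to 2.58 in the Adipoq-F2-KO libraries, as the labels imply. Marker genes of 10 cell types were summed in each library, and edgeR called genes in the macrophage set alone. The summed CPM of 10 adipocyte markers was 41930 to 46950 in FFA2 fl/fl and 32110 to 42730 in Adipoq-F2-KO, with 1 of 10 higher in the knockout, and Adipoq itself was at 3608 ± 155 (SD, n = 3) and 3087 ± 519 CPM (SD, n = 4). The 16 macrophage markers summed to 644 to 762 CPM against 852 to 1033, with 14 of 16 higher. Of these, 2 were called higher (adjusted p under 0.05, edgeR's quasi-likelihood test), against 0.798% of all tested genes. At an edgeR unadjusted p under 0.05, 11 macrophage markers were higher, against 10.5% of all tested genes. DESeq2 called 9 of them higher, against 5.03% of genes, and voom 3. All 10 endothelial markers were higher, 8 at an unadjusted p under 0.05 (10.5% of all tested genes were higher at that p). Of them 0 were called by edgeR and 4 by DESeq2, which called 5.03% of genes higher. Endothelial sums were 1116 to 1508 against 1498 to 2558 CPM. Of 9 fibroblast progenitor markers 8 were higher, with sums of 852 to 1136 against 1216 to 1462 CPM. Erythroid markers summed to 97.6 to 223 against 209 to 372 CPM and mesothelial markers to 9.70 to 25.2 against 7.25 to 10.8 CPM, while neutrophil markers (at most 5.01 CPM, with Ly6g at 0), T cell markers (at most 5.67) and B cell markers (at most 17.0) were low. Epididymal and germ cell markers (Defb30 and Lcn5 at 0) summed to at most 17.6 CPM except in Adipoq-F2-KO 2, at 110.0. Mitochondrial genes took 4.41 to 5.77% of counts in FFA2 fl/fl and 6.61 to 10.3% in Adipoq-F2-KO. In Adipoq-F2-KO 4 the adipocyte sum was the lowest and the macrophage, endothelial, fibroblast progenitor and erythroid sums and the mitochondrial share were the highest of all libraries. The part of these differences in the results below was not tested, and in bulk RNA fewer cells of a type cannot be told apart from less RNA per cell.

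Adipocyte preparations held all 10 transcripts at very unequal levels. Per kilobase of exon, Dusp1, an immediate-early gene and a well known regulator of p38 and JNK in inflammation, was the most abundant, at 121 CPM per kb (mean of 3) in FFA2 fl/fl and 154 (mean of 4) in Adipoq-F2-KO. Dusp10 came next, at 39.5 and 56.7 CPM per kb, and its libraries lay apart from those of Dusp1 and of the gene below it. In FFA2 fl/fl, Dusp6 (10.6), Dusp8 (9.30), Dusp4 (8.94) and Dusp16 (6.88) formed a run in which each neighbour overlapped the next. Dusp5 (3.62), Dusp2 (3.02) and Dusp7 (2.92) formed a lower run, also overlapping, and Dusp14 lay lowest at 0.206 CPM per kb. In Adipoq-F2-KO the order of means changed at 2 places. Dusp4 (12.7 CPM per kb) stood above Dusp8 (9.45) without overlap of their libraries, and Dusp2 (5.87) stood above Dusp5 (4.84) with overlap. The most abundant ERK-arm transcript, Dusp6, was thus below both leading stress-arm transcripts in each genotype.

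**Figure D1:**
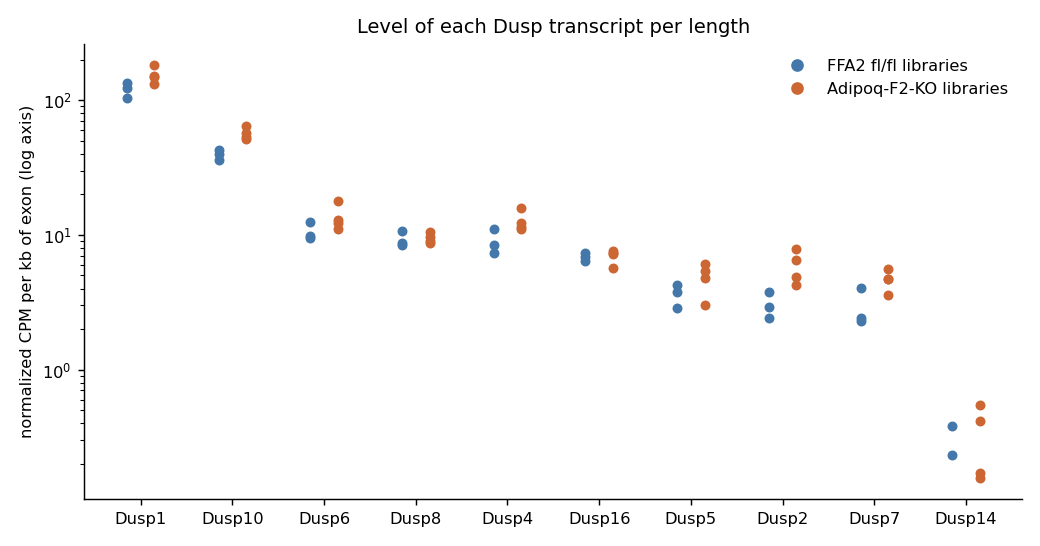
Each point is 1 library, with the level of each transcript per length (TMM-normalized CPM per kb of exon, log axis) for 3 FFA2 fl/fl and 4 Adipoq-F2-KO libraries. Dusp1 and Dusp10 stand above the other members in both genotypes, Dusp14 lies below them, and its value of 0 in FFA2 fl/fl 3 cannot be drawn on a log axis.

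The comparison of Adipoq-F2-KO with FFA2 fl/fl addresses whether loss of the receptor in adipocytes goes with a change in these feedback phosphatases. All 10 transcripts had a positive log2 fold change, and 1 of the 10, Dusp10, was called higher by the same edgeR test, against 0.798% of all tested genes called higher. None was lower at an unadjusted p under 0.05, or called lower by edgeR, DESeq2 or voom. At an unadjusted p under 0.05, 5 of 10 were higher (Dusp1, Dusp2, Dusp4, Dusp7 and Dusp10), against 10.5% of all tested genes, and this count was 4 to 7 with any 1 library left out. Every Adipoq-F2-KO library lay above every FFA2 fl/fl library for 2 of 10 members, Dusp2 and Dusp10, against 8.86% of tested genes. That number was 5 without FFA2 fl/fl 2, 4 without Adipoq-F2-KO 2, and 2 or 3 without any other library. FFA2 fl/fl 2 was the highest control for 7 of the 10 members, and Adipoq-F2-KO 4 was the highest library for 5 of them.

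**Figure D2:**
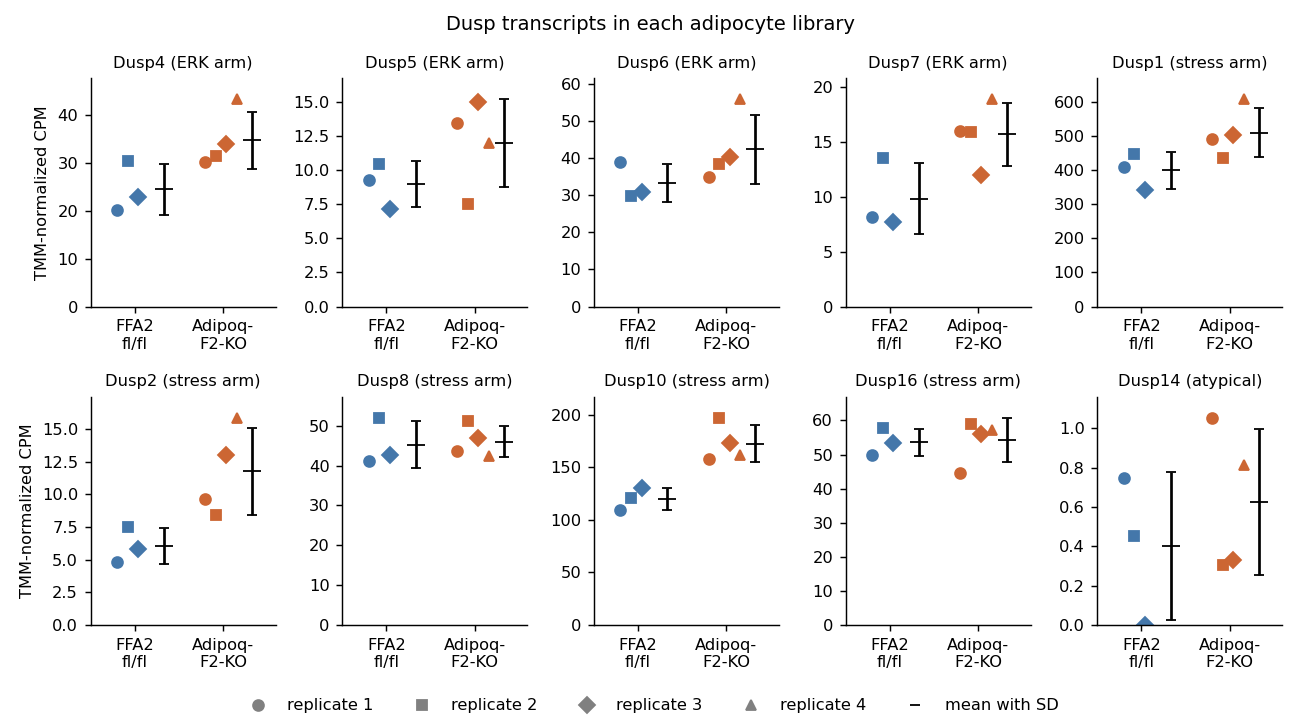
Each panel gives 1 Dusp transcript, with TMM-normalized CPM (linear axis from 0) in 3 FFA2 fl/fl (blue) and 4 Adipoq-F2-KO (orange) libraries, symbols for the replicate number, and the mean with SD as a black bar. Dusp10 and Dusp2 are the panels in which the genotypes do not overlap, and Dusp8 and Dusp16 are those in which the means nearly coincide.

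Dusp10 was the stress-arm gene with the clearest separation. Its product, also called MKP5, inactivates p38 and JNK and restrains cytokine production in immune cells. The gene (ENSMUSG00000039384) is on chromosome 1, from 183745499 to 183807833 in the table's coordinates. It was at 109, 121 and 130.3 CPM in FFA2 fl/fl 1 to 3 and at 158, 197, 173 and 162 CPM in Adipoq-F2-KO 1 to 4. The lowest knockout library therefore lay above the highest control, and the highest was Adipoq-F2-KO 2, the library with 110.0 CPM of epididymal and germ cell markers. Means were 120.1 ± 10.6 (SD, n = 3) and 172 ± 17.7 CPM (SD, n = 4). On the log2 scale it rose by 0.52 (SE 0.10, approximate 95% interval 0.29 to 0.75, edgeR adjusted p = 0.0468), and an exact two-sided permutation test of its CPM gave p = 0.0286, the smallest that 3 against 4 libraries allow. The fold change held at 0.46 to 0.60 with any library left out, but the adjusted p was above 0.05 without FFA2 fl/fl 1 (0.249), FFA2 fl/fl 2 (0.103), FFA2 fl/fl 3 (0.143), Adipoq-F2-KO 2 (0.0738) or Adipoq-F2-KO 3 (0.0751). It was 0.0472 without Adipoq-F2-KO 1 and 0.0409 without Adipoq-F2-KO 4, the library with the highest macrophage and endothelial marker sums, and the part of either set of markers in this difference was not tested.

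Dusp2 had the largest fold change of the 10 members but did not pass the test. It encodes PAC1, a nuclear phosphatase known from activated immune cells, and lies on chromosome 2 (127178079 to 127180296, ENSMUSG00000027368). Its CPM was 4.81, 7.51 and 5.80 in FFA2 fl/fl 1 to 3 and 9.68, 8.45, 13.0 and 15.9 in Adipoq-F2-KO 1 to 4. The genotypes did not overlap, and the gap between FFA2 fl/fl 2 and Adipoq-F2-KO 2 was small beside the range within the knockout. The log2 fold change was 0.96 (SE 0.24, approximate 95% interval 0.44 to 1.48), from a mean of 6.04 ± 1.37 (SD, n = 3) to one of 11.8 ± 3.36 CPM (SD, n = 4). It missed the threshold across all genes (edgeR adjusted p = 0.0786, exact permutation p = 0.0571), and passed with DESeq2 (adjusted p = 0.00589). Macrophages and other immune cells are known to express Dusp2, and the macrophage marker sum had the same ordering of genotypes, with its part in this difference not tested.

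Dusp1 differed less in proportion although it is the most abundant member. Its CPM was 409.5, 448 and 341 in FFA2 fl/fl 1 to 3 and 493, 435, 505 and 609 in Adipoq-F2-KO 1 to 4, so that Adipoq-F2-KO 2 lay below FFA2 fl/fl 2. Its log2 fold change was 0.35 (SE 0.13, approximate 95% interval 0.07 to 0.64, edgeR adjusted p = 0.188). The exons of Dusp1 share 11 bases with those of Ergic1 on the other strand, those of Dusp5 share 547 bases with AC137853.2 (0 counts in every library) and those of Dusp8 share 66 bases with Gm32786 (0 to 8 counts), also on the other strand. How the counting treated strand is not given in the sources used here, so the levels of these genes, and the place of Dusp5 in the order per length, are uncertain to that extent.

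Dusp8 and Dusp16, the stress-arm members whose products act on JNK and p38, were almost level between genotypes. Dusp8 was at 41.1, 52.0 and 42.7 CPM in FFA2 fl/fl 1 to 3 and at 43.6, 51.1, 46.9 and 42.4 in Adipoq-F2-KO 1 to 4. Its log2 fold change was 0.02 with an approximate 95% interval of -0.22 to 0.27 (edgeR adjusted p = 0.941). For Dusp16 the values were 49.8, 57.7 and 53.4 CPM, then 44.6, 59.1, 56.2 and 57.2 CPM, and the interval around a log2 fold change of 0.02 was -0.23 to 0.26 (edgeR adjusted p = 0.963). Both ranges overlapped widely, and differences as large as these bounds are not excluded. The upper bounds of both intervals lay below the lower bound of 0.29 for Dusp10, a member of the same arm, and this contrast between members was not tested.

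Among the ERK-arm genes, the nuclear phosphatase Dusp4 and the cytoplasmic Dusp7 stood highest in fold change. Dusp7 was at 8.17, 13.5 and 7.70 CPM in FFA2 fl/fl 1 to 3 and at 15.9, 15.9, 12.0 and 18.9 in Adipoq-F2-KO 1 to 4, a log2 fold change of 0.67 (SE 0.22, edgeR adjusted p = 0.146). Of the knockout libraries, Adipoq-F2-KO 3 alone lay below a control library, FFA2 fl/fl 2. Dusp4 was at 20.2, 30.4 and 22.9 CPM in the controls and at 30.2, 31.4, 33.9 and 43.3 CPM in the knockout libraries, a log2 fold change of 0.50 (SE 0.16, edgeR adjusted p = 0.152). The groups overlapped by the narrowest of margins, Adipoq-F2-KO 1 against FFA2 fl/fl 2. Dusp7 passed with DESeq2 (adjusted p = 0.0493), where Dusp2, Dusp7 and Dusp10, 3 of the members, were called higher against 5.03% of genes, and Dusp14 was given no adjusted p. With every gene of at least 1 count kept in the fit, Dusp2, Dusp4, Dusp7 and Dusp10 (4 members) were called higher, against 3.76% of genes.

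Dusp6 and Dusp5, the members most closely tied to ERK output, did not pass. Dusp6, a cytoplasmic phosphatase specific for ERK, was at 39.1, 29.8 and 30.8 CPM in FFA2 fl/fl 1 to 3 and at 34.9, 38.4, 40.2 and 55.9 in Adipoq-F2-KO 1 to 4. Its log2 fold change was 0.35 (SE 0.16, approximate 95% interval -0.01 to 0.71, edgeR adjusted p = 0.292), and 0.19 without Adipoq-F2-KO 4. Dusp5, a nuclear phosphatase specific for ERK and the member with a pair of serum response elements printed above, was at 9.27, 10.5 and 7.12 CPM, then 13.4, 7.503, 15.0 and 11.9 CPM. Adipoq-F2-KO 2 lay within the controls and the other knockout libraries lay above them, for a log2 fold change of 0.42 (SE 0.23, approximate 95% interval -0.08 to 0.91, edgeR adjusted p = 0.358).

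Dusp14 was too sparse to compare. It had 28, 18 and 0 counts in FFA2 fl/fl 1 to 3 and 42, 10, 12 and 24 in Adipoq-F2-KO 1 to 4, where a count of 0 allows up to 0.179 CPM in FFA2 fl/fl 3 (3 fragments, counting error only). The log2 fold change of 0.63 had an approximate 95% interval of -1.52 to 2.79, and a change was not detectable at this depth.

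**Figure D3:**
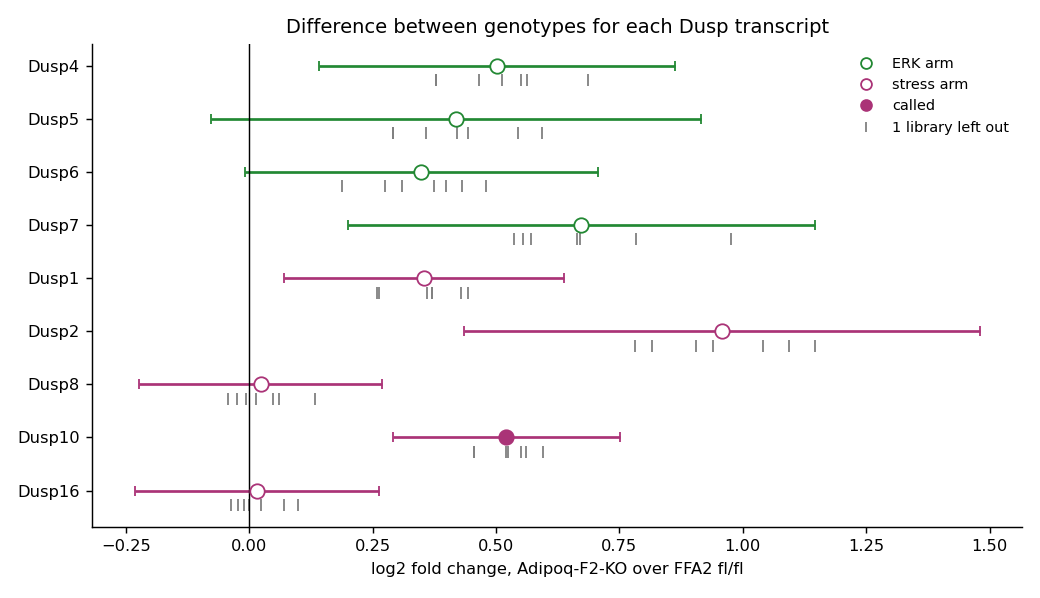
Log2 fold change of Adipoq-F2-KO over FFA2 fl/fl for 9 members (Dusp14 is left out for its wide interval), with approximate 95% intervals as bars, a filled circle for the called gene and gray ticks for the fits that leave out 1 library each. The intervals of Dusp2, Dusp10, Dusp1, Dusp4 and Dusp7 lie above 0, those of Dusp5 and Dusp6 reach just below it, and Dusp8 and Dusp16 sit at 0.02.

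The arms were then set side by side. The median log2 fold change was 0.46 over the 4 ERK-arm members and 0.35 over the 5 stress-arm members, against 0.0037 over all tested genes, and 2 of 4 and 3 of 5 respectively had an unadjusted p under 0.05. The ERK-arm values lay close together (0.35 to 0.67), whereas the stress-arm values ran from 0.02 to 0.96. In each library the log2 CPM of an arm was averaged relative to the FFA2 fl/fl mean. For the ERK arm this mean log2 level was -0.04, 0.23 and -0.20 in FFA2 fl/fl 1 to 3 and 0.44, 0.28, 0.47 and 0.76 in Adipoq-F2-KO 1 to 4. For the stress arm it was -0.13, 0.17 and -0.04, then 0.22, 0.34, 0.43 and 0.49. Both arm means were higher in every knockout library than in any control, FFA2 fl/fl 2 being the nearest control in each. Taken singly, 0 of 4 ERK-arm and 2 of 5 stress-arm members parted the genotypes in this way, against 8.86% of all tested genes. The ERK arm minus the stress arm was 0.09, 0.07 and -0.15 in the controls and 0.22, -0.06, 0.04 and 0.26 in the knockout libraries. These ranges overlapped, with means of 0 ± 0.13 (SD, n = 3) and 0.12 ± 0.15 (SD, n = 4). The gap between ERK-arm and stress-arm members thus differed between genotypes by less than the spread between libraries. No test is given for these averages, since the genes of an arm are not replicates.

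**Figure D4:**
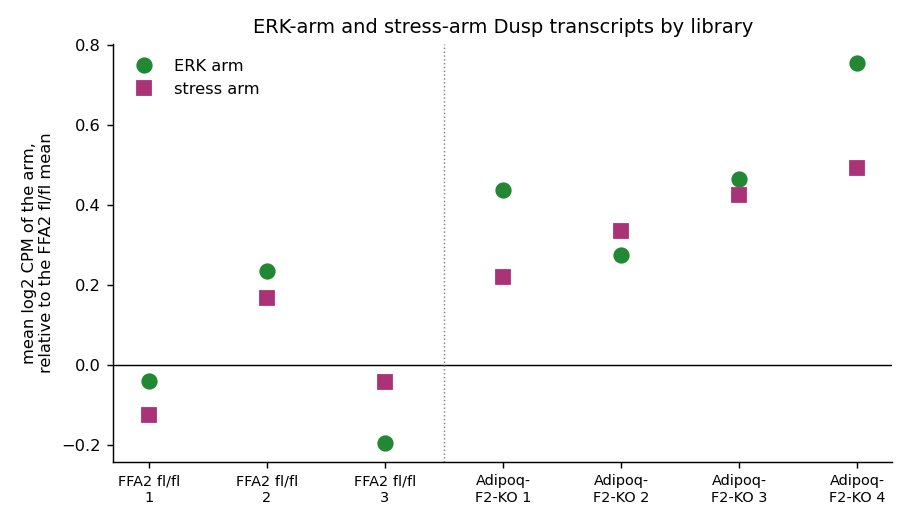
Mean log2 CPM of the 4 ERK-arm (circles) and 5 stress-arm (squares) transcripts in each library, relative to the FFA2 fl/fl mean, with genotypes parted by the dotted line. Both arm means are above every control in all 4 Adipoq-F2-KO libraries, and that of the ERK arm is highest in Adipoq-F2-KO 4, at 0.76.

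Around the phosphatases, most transcripts that ERK, p38 and JNK are known to induce had positive fold changes. Of 20 tested ERK output genes, 17 had a positive log2 fold change (median 0.49), 13 were higher and 0 lower at an unadjusted p under 0.05 (10.5% of all tested genes were higher), and 2 were called higher (0.798% of all tested genes). DESeq2 called 6 of them higher and voom 3. The 3 with negative log2 fold changes were Spred3 (-0.27), Fos (-0.09) and Spry1 (-0.06), and Egr1 was level at 0.0016. The called genes were Errfi1, a feedback inhibitor of EGF receptor signaling (175 ± 27.4 against 326 ± 44.2 CPM, log2 fold change 0.90, edgeR adjusted p = 0.0332), and Phlda1 (77.1 ± 21.2 against 136 ± 15.5 CPM, 0.82, adjusted p = 0.0464). Fosl1, an AP-1 subunit, was at 15.5 ± 5.39 and 32.9 ± 5.33 CPM with an edgeR adjusted p of 0.0505. The count of 13 was 8 without FFA2 fl/fl 1 and 10 to 12 without any other library. Of 13 p38 and JNK output genes, 10 were higher (median 0.32), 6 at an unadjusted p under 0.05 (2 without FFA2 fl/fl 3, and 4 to 8 without any other library). By edgeR, by DESeq2 and by voom 1 was called. The shares of all genes higher were 10.5% at this unadjusted p, 0.798% as edgeR calls and 5.03% as DESeq2 calls. The gene called by edgeR was the cytokine Tnf, at 12.6, 16.8 and 13.7 CPM in FFA2 fl/fl 1 to 3 and 41.4, 30.8, 44.1 and 63.8 in Adipoq-F2-KO 1 to 4 (log2 fold change 1.65, edgeR adjusted p = 0.0192). Il1b (4.74 ± 2.02 against 8.41 ± 2.02 CPM) and Gadd45g (105 ± 12.2 against 131 ± 16.0 CPM) did not pass. The 3 lower genes of this list were Jun (log2 fold change -0.33), Ddit3 (-0.09) and Junb (-0.06), none of them called.

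The kinases were nearly even in direction. Of 24 ERK cascade genes, 12 were higher and 12 lower (median 0.06), 7 and 3 of them at an unadjusted p under 0.05. By edgeR 0 were called, by DESeq2 3 higher and 1 lower, and by voom 1 higher. For both kinase lists, the shares of all genes higher were 10.5% at this unadjusted p, 0.798% as edgeR calls and 5.03% as DESeq2 calls. Map3k8, a kinase that activates MEK downstream of TNF and Toll-like receptors, was at 33.7 ± 7.47 and 52.7 ± 5.67 CPM (edgeR adjusted p = 0.0588), and Nras at 42.7 ± 4.11 and 57.2 ± 4.97 CPM. Of 26 p38 and JNK cascade genes, 11 were higher and 15 lower (median -0.02), 5 and 1 of them at an unadjusted p under 0.05, and 1 was called higher by edgeR, by DESeq2 and by voom. The gene called by edgeR was Mapkapk3, a kinase that p38 activates, at 14.4 ± 3.10 and 27.4 ± 3.42 CPM (log2 fold change 0.93, edgeR adjusted p = 0.0332). Mapk8, which encodes JNK1 (14.0 ± 0.400 against 18.6 ± 3.69 CPM), and Map3k11 (56.3 ± 4.45 against 70.9 ± 10.5 CPM) did not pass.

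Dusp1 is also known to be induced by tissue digestion and by glucocorticoids. Of 30 tissue dissociation genes, 20 were higher and 10 lower (median 0.11), 4 and 1 at an unadjusted p under 0.05 (10.5% of all tested genes were higher). The shared output genes named above are among them, so this list is not independent of the output lists. By edgeR and by voom 0 were called, and by DESeq2 1 higher and 1 lower. Nr4a2 was at 28.3 ± 5.38 and 46.7 ± 18.3 CPM and Klf6 at 558 ± 26.7 and 657 ± 72.3 CPM, whereas Klf2 was at 122 ± 22.96 and 84.2 ± 9.35 CPM. Of 12 glucocorticoid-induced genes, 6 were higher and 6 lower (median 0.09), 4 and 5 at an unadjusted p under 0.05. DESeq2 called 2 higher and 2 lower, voom 2 higher and 0 lower, and edgeR 2 higher and 0 lower. Of all genes, DESeq2 called 5.03% higher and edgeR 0.798%. The genes that edgeR called were Errfi1, which is also on the ERK output list, and Lcn2, an acute-phase protein of fat and of neutrophils (4.82 ± 0.636 against 11.5 ± 2.24 CPM, log2 fold change 1.26, edgeR adjusted p = 0.0332). Zbtb16, a glucocorticoid target, was at 282 ± 19.2 and 209 ± 29.9 CPM. In these paragraphs on gene lists each pair is FFA2 fl/fl (SD, n = 3) against Adipoq-F2-KO (SD, n = 4).

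**Figure D5:**
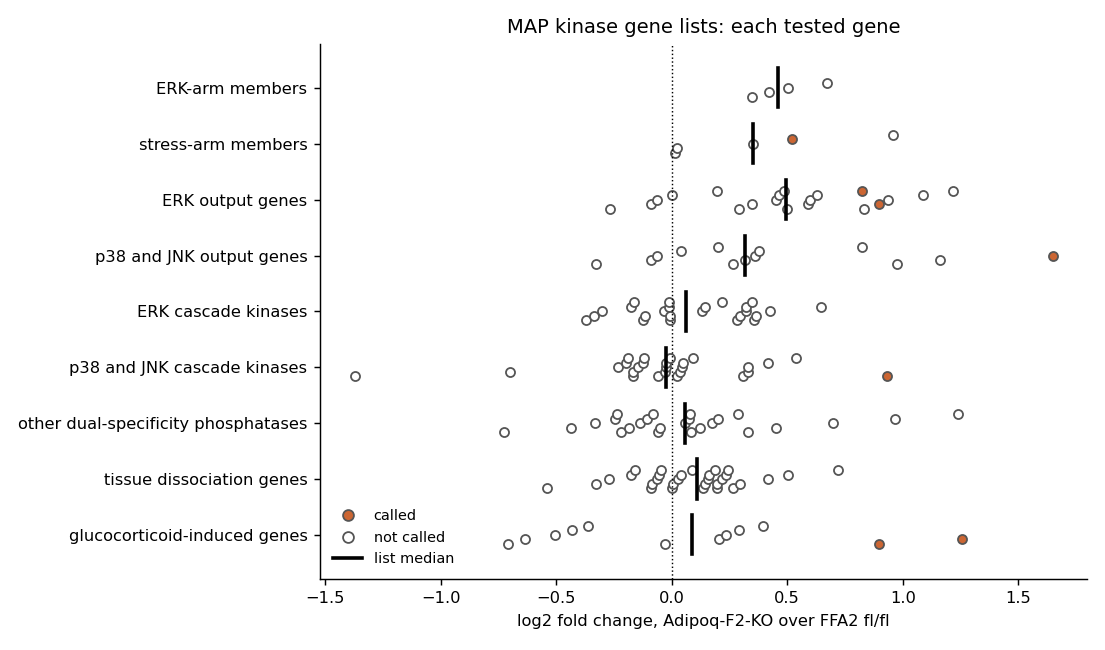
Each circle is the log2 fold change (Adipoq-F2-KO over FFA2 fl/fl) of 1 tested gene in 9 gene lists, filled where the gene was called, and the black bars are list medians. A gene on more than 1 list is drawn in each. The medians of the ERK-arm members (0.46), stress-arm members (0.35), ERK output genes (0.49) and p38 and JNK output genes (0.32) lie right of 0, and those of the kinase lists, other dual-specificity phosphatases, dissociation genes and glucocorticoid-induced genes lie between -0.02 and 0.11.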

How the data were processed

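Poly-A selected, stranded libraries were sequenced in read pairs, 3 from controls and 4 from knockouts. For trimming the authors used Trimmomatic, for alignment STAR and for counting per gene featureCounts (versions and options are not given in the sources used here), and the deposited counts are whole numbers without normalization. The submitters' processing notes name GRCm38, but 24240 of 37039 compared gene starts lay over 100 kb from GRCm38.p6, so gene coordinates are those of the table and promoter coordinates those of GRCm38.p6. Even numbers made up 85.5% to 88.8% of low counts (1 to 49), which points to both mates being counted. A count of 0 then allows up to 0.150 to 0.197 CPM (3 fragments, 6 counts). Totals were 30478997 to 39992605 counts.

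Of 57010 identifiers, 52029 were matched to a symbol. After filterByExpr and TMM scaling, genes were tested two-sided with the quasi-likelihood F test of edgeR 4.0.16 in R 4.3.3, with genotype as the only term and Benjamini-Hochberg adjustment over 17039 genes. Called means an adjusted p under 0.05. Intervals are approximate, from the SE implied by F. The test was tested on simulated data. Alternatives were other scalings, DESeq2 1.42.0, limma 3.58.1 (voom), a filter of at least 1 count, halved counts, a fit without mitochondrial genes and the most abundant gene, the replicate number as a block, and each library left out. The counts of members and output genes with a library left out were added after the data were seen. The labels name no batch.

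The members and gene lists were chosen with earlier results of these data known. The genes named were the 10 members, every called gene and the 3 of smallest p in each list, the 5 genes most correlated with the member of smallest p, Ffar2, Adipoq and Adgre1, and the summed markers. A gene that this rule names is not reported here. Promoters were searched for 10 motifs, all reported. P-values set the difference between genotypes against the spread between libraries, which edgeR estimates partly from all genes. That spread holds mice, cell isolation and library preparation together.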

Additional observations from a re-analysis of the deposited data

Results flagged for a closer look

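Among the 4 Adipoq-F2-KO libraries, 33 genes (the members and the other genes named) were examined for 1 library far from the other 3, by Dixon's test at the 95% level, which flags about 1 in 20 such groups by chance. None of the 10 phosphatases was flagged, and 3 other genes were. Cdc14a, a phosphatase of the wider family, was at 6.29 CPM in Adipoq-F2-KO 2 and at 3.46 to 3.79 in the other libraries of the genotype. Gadd45g, a p38 and JNK output gene, was at 155 CPM in Adipoq-F2-KO 3 and at 122 to 126 in the others. Adgre1, which encodes the macrophage marker F4/80, was at 26.0 CPM in Adipoq-F2-KO 4 and at 15.9 to 17.4 in the others.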

How the results depend on the processing

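Of 150 member values under the alternatives, 132 kept their direction and their side of the threshold, 5 lost a call and 5 gained it. The other 8 changed sign, all of Dusp8 or Dusp16, which were uncalled throughout. With a library left out, the log2 fold change of Dusp8 was -0.0435 to 0.13 and that of Dusp16 was -0.0367 to 0.10. The number of members called was 1 of 10 in the reported fit and under the other scalings, voom, halved counts and removal of mitochondrial genes, 3 with DESeq2, 4 with the filter of at least 1 count, and 0 to 1 with a library left out. The genes called in all were 173 in the reported fit, 208 with voom, 992 with DESeq2, 1403 with the filter of at least 1 count, and 1 to 178 with a library left out. Leaving out 1 library gave 2 to 5 members whose genotypes did not overlap, 4 to 7 members at an unadjusted p under 0.05, and median log2 fold changes of 0.39 to 0.62 for the ERK arm and 0.26 to 0.44 for the stress arm. Where a call changed, the cause was not tested.

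With the replicate number as a block (replicates 1 to 3 of each genotype, without Adipoq-F2-KO 4), 1 member was called, Dusp10 (log2 fold change 0.55, edgeR adjusted p = 0.0297), 223 genes were called in all, and Dusp16 had a log2 fold change of -0.0179. Deviations of same-numbered libraries correlated at 0.013, 0.008 and -0.036. Such values cannot decide whether the numbers pair mice, and the labels name no pairing.

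With 3 and 4 libraries, an exact permutation test cannot go below 0.0286. The intervals of Dusp5 and Dusp6 included 0, and Dusp14 was limited by depth.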

Other observations

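The wider family was nearly even in direction. Of 25 other dual-specificity phosphatases tested, 13 were higher and 12 lower in Adipoq-F2-KO (median log2 fold change 0.06). At an unadjusted p under 0.05 these were 3 and 1 (10.5% of all tested genes were higher). By edgeR or voom 0 were called, and 2 were called higher by DESeq2, against 5.03% of genes. Ssh1, a phosphatase of cofilin, was at 39.5 ± 1.45 (SD, n = 3) and 53.9 ± 4.85 CPM (SD, n = 4), without overlap (edgeR adjusted p = 0.0556). Cdc14a was at 1.82 ± 0.348 and 4.30 ± 1.33 CPM (adjusted p = 0.0696 by edgeR). Dusp23 was at 13.9 ± 0.748 and 10.3 ± 2.35 CPM, with every knockout library below every control (edgeR adjusted p = 0.227).

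The genes whose log2 CPM followed that of Dusp10 most closely over the 7 libraries, among 13499 candidates averaging 1 CPM or more, were Nup50 (Pearson r = 0.991), Sec24a (0.980), Nmd3 (0.978), Usp53 (0.977) and Trp53rkb (0.976). The coefficients describe libraries that also differ in genotype and were the highest of many, so they carry no test. For each of the 5, every knockout library lay above every control, against 8.86% of all tested genes. They were picked for following Dusp10, whose genotypes do not overlap, so this follows largely from the choice. The edgeR adjusted p was 0.0536 for Nmd3 and 0.0824 to 0.1802 for the others. Trp53rkb was sparse, at 0.267 to 0.586 CPM in FFA2 fl/fl. Nup50, a nuclear pore protein, was at 41.7, 43.9 and 44.9 CPM in FFA2 fl/fl 1 to 3 and at 48.4, 55.1, 52.7 and 50.7 in Adipoq-F2-KO 1 to 4, highest, like Dusp10, in Adipoq-F2-KO 2.

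Adgre1, at 11.4 ± 1.41 CPM (SD, n = 3) in controls, was at 18.99 ± 4.70 CPM (SD, n = 4) in knockouts (edgeR adjusted p = 0.0792).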
